A study of Mus musculus with 12 samples.

Results

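The Ms4a genes code for small proteins that pass several times through the cell membrane and sit beside receptors whose signals they tune. The 8 members described here were Ms4a4b and Ms4a6b, known from T cells, Ms4a4c, an interferon-responsive gene of lymphoid and myeloid cells, Ms4a6c, Ms4a6d, Ms4a7 and Ms4a4a, known from monocytes and macrophages, and Ms4a1, which codes for CD20 of B cells. They were taken by name from a table of 23937 genes, and 7 of the 8 were found there. Ms4a4a was not analysed here. They were selected on their CPM in these 12 libraries, which were known when they were grouped, so the differences and calls given for them are a description and no test of a prediction.

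The libraries were made from RNA of mouse CD8 T cells isolated by fluorescence-activated cell sorting. The 4 groups of 3 libraries came from brains of naive mice, brains taken 3 days after stroke, brains taken 30 days after stroke, and blood of naive mice, which had no stroke. The sources used here give no strain, age, sex, way of making the stroke or pooling of mice, and one protocol in the labels speaks of spleens where the tissue label says brain or blood. No label ties the libraries to different animals, and a p-value therefore reflects the spread among these libraries, which may be technical.

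In mouse T cells, the Ms4a4b protein and its relative Ms4a6b lie next to the receptor GITR and alter how a T cell responds to stimulation. Ms4a6c is a gene of inflammatory monocytes, Ms4a6d one of macrophages and microglia, and in the brain Ms4a7 is known from border macrophages and from macrophages that descend from monocytes. The family arose by duplication, and its genes lie side by side, so lymphoid and myeloid members are neighbours.

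All 8 members lie on chromosome 19 (mm10, GENCODE vM21). On the plus strand follow Ms4a4a (11375523 to 11392790), Ms4a4c (11404770 to 11427246), Ms4a4b (11443553 to 11467055), Ms4a6c (11469366 to 11482192) and Ms4a6b (11516512 to 11531256). On the minus strand lie Ms4a1 (11249675 to 11266241), Ms4a7 (11321039 to 11336146) and Ms4a6d (11586604 to 11604849). The lymphoid Ms4a4b is next to the myeloid Ms4a6c, and its own nearest relative, Ms4a4c, is on its other side. The coding sequences of Ms4a4b and Ms4a4c were identical at 91.7% of bases, those of Ms4a6b and Ms4a6c at 85.1% and those of Ms4a6b and Ms4a6d at 81.4%. Ms4a6b overlaps Gm19261, Ms4a4c overlaps Gm5692, Ms4a6c overlaps BE692007 and Ms4a1 overlaps 4930526L06Rik, and whether reads were counted by strand is not given, so reads of such neighbours may be mixed.

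The stretches before the starts of these 2 pairs are shown because each pair joins a gene of high read counts outside day 3 to a close copy with far fewer. They are from RefSeq on GRCm38.p6, up to 250 bases before the RefSeq start, written 5′ to 3′ and ended where the annotation has an exon. Capitals mark the longest run shared letter for letter within a pair, 20 bases in Ms4a4b and Ms4a4c and 48 bases in Ms4a6b and Ms4a6c, of which 12 and 47 fall in the part shown.
Ms4a4b upstream, chr19:11443308-11443552, + strand: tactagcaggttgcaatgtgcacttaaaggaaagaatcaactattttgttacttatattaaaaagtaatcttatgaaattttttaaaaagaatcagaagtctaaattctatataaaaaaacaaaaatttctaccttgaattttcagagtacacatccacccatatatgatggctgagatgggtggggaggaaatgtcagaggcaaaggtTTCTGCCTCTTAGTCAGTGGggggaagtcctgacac
Ms4a4c upstream, chr19:11407411-11407660, + strand: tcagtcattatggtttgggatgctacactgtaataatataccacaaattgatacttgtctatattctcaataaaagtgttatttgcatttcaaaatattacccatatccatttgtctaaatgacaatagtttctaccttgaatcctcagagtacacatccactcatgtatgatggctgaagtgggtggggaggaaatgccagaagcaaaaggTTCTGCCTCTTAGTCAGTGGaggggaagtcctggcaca
Ms4a6b upstream, chr19:11518309-11518452, + strand: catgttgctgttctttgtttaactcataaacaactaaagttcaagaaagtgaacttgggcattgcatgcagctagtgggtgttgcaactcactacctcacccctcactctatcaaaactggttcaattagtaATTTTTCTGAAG
Ms4a6c upstream, chr19:11469118-11469365, + strand: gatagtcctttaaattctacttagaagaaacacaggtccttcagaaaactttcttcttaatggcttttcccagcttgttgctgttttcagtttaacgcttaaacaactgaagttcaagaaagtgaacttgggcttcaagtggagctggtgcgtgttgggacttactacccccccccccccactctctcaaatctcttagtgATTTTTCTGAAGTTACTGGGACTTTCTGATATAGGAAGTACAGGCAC
Over the whole 250 bases, Ms4a4b and Ms4a4c were identical at 74% of bases and Ms4a6b and Ms4a6c at 59.6%. The shared run begins 41 bases before the start of Ms4a4b and 38 before that of Ms4a4c, and 118 bases before the start of Ms4a6b and 49 before that of Ms4a6c. The RefSeq starts of Ms4a4c and of Ms4a6b lie inside the longer GENCODE genes, and so do their windows. Of the Ms4a6b window, 106 bases fall in an exon of another transcript. Both strands were searched for the letters GAGGAA, a core that the myeloid factor PU.1 and related factors can bind, and they were found in the windows of Ms4a4b and Ms4a4c and in 23.3% of 32851 mouse promoter windows of this length. The letters TGTGGT, the core of RUNX sites, were in the window of Ms4a4c alone of these 4 and in 14.0% of all windows. The interferon-stimulated response element was in none of the 4 and in 2.98% of all windows. Neither of the 2 spelled motifs contains the other, and a match is a description of letters, not a site.

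**Figure D1:**
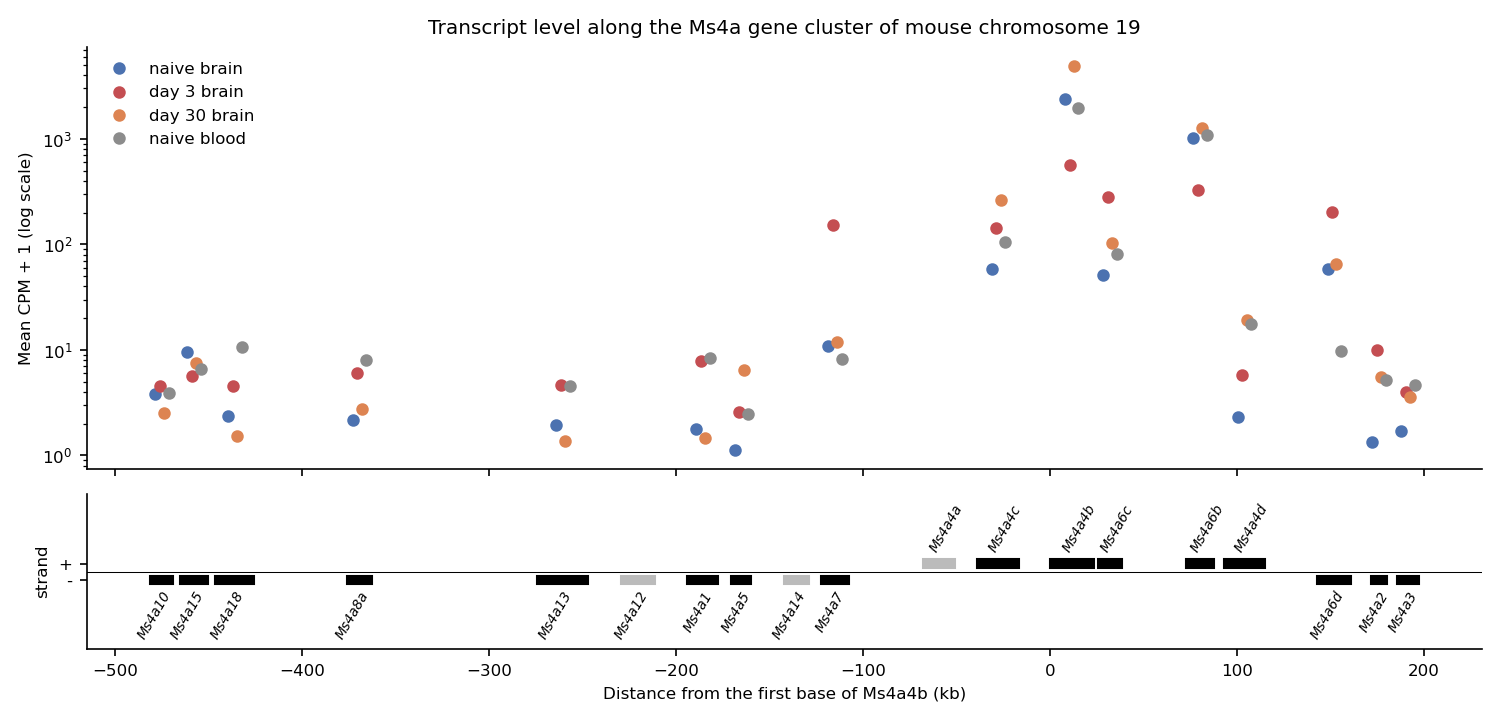
Mean CPM + 1 of each group (points, log axis) for the Ms4a genes in the table, placed by distance in kb from the first base of Ms4a4b; black boxes below show each gene on its strand and grey boxes the genes not analysed here. Ms4a4b has the highest points, reaching a mean of 4875 CPM at day 30, while in no library did an Ms4a gene other than the members exceed 47.8 CPM.

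Sequencing depth ran from 1104490 to 21014171 reads, and values are CPM, reads scaled to a common library size that the authors had adjusted. A count of 0 allows a level of up to 3 reads, which is 0.298 to 1.65 CPM depending on the library. Intervals and limits of this kind cover counting error only. The libraries fell into 5 with few and 7 with many reads on receptor genes that these cells should not use, called low and high background here. The low ones were all naive brain libraries and replicate 1 of day 3 and of day 30, and the high ones were all blood libraries and replicates 2 and 3 of day 3 and of day 30. All 12 genes of a T cell list, among them Cd8a and Cd3d, had reads in every library. The share of reads on that list was 0.640 to 0.866% for naive brain, 0.0752 to 0.243% for day 3, 0.481 to 1.25% for day 30 and 0.379 to 0.514% for blood. Genes of other cells were present too. In the same order, 12 microglia genes took 0.973 to 1.91%, 0.309 to 1.27%, 0.176 to 0.540% and 0.0181 to 0.0408% of reads, and 11 monocyte and macrophage genes took 0.533 to 0.681%, 0.503 to 1.35%, 0.337 to 0.539% and 0.0772 to 0.202%. Dendritic cell genes took 0.0846 to 0.106%, 0.134 to 0.240%, 0.0336 to 0.0520% and 0.0101 to 0.0141%, and natural killer cell genes 0.0105 to 0.0241%, 0.00563 to 0.0108%, 0.0175 to 0.0650% and 0.00727 to 0.0149%.

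Ms4a4b, which in T cells tunes the signal of GITR and slows division, was low in brain at 3 days after stroke and high at 30 days. Its levels were 2202, 2542 and 2466 CPM in naive brain, 1177, 76.9 and 439 CPM at day 3, 7002, 3298 and 4324 CPM at day 30, and 1879, 1431 and 2591 CPM in blood. The day 3 libraries all lay below the other 9 and the day 30 libraries all lay above them. The group means were 2403 ± 179, 564 ± 561, 4875 ± 1912 and 1967 ± 585 CPM (SD, n = 3 each, same order). By mean, day 3 was lowest, followed by blood, naive brain and day 30, and naive brain and blood differed by less than their spread. In a bulk library fewer T cells and less of the transcript per T cell cannot be told apart.

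Ms4a6b, the partner gene that acts with Ms4a4b on GITR, was lowest in the same day 3 libraries. It stood at 1139.9, 1096 and 806 CPM in naive brain, 824, 16.4 and 147 CPM at day 3, 2368, 679.5 and 766 CPM at day 30, and 1713, 624 and 918 CPM in blood. Replicates 2 and 3 of day 3 were below every other library, while replicate 1 of day 3 lay within the range of all 3 other groups. The means were 1014 ± 181, 329 ± 433, 1271 ± 951 and 1085 ± 563 CPM (SD, n = 3 each), and the means of naive brain, day 30 and blood differed by less than their spread. In unscaled CPM, naive brain stood at 639 ± 234 and blood at 1480 ± 624.

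**Figure D2:**
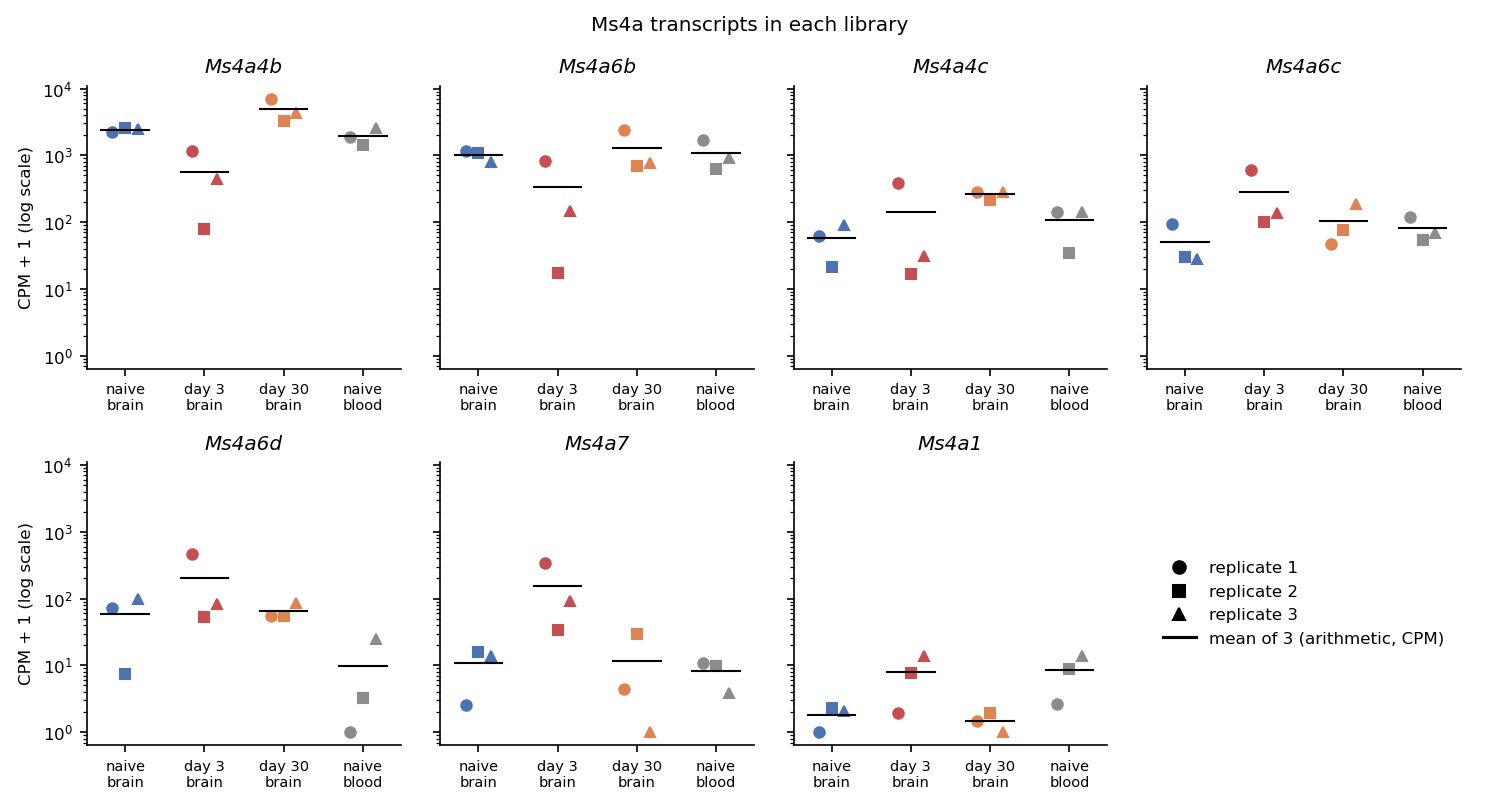
CPM + 1 of the 7 Ms4a genes in each of 12 libraries on a log axis, one panel per gene; symbols give the replicate and the line is the arithmetic mean of 3 CPM values. Ms4a4b runs from 76.9 CPM in a day 3 library to 7002 CPM in a day 30 library, and Ms4a1 stays at the bottom, with 123 reads in all.

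At day 3 against naive brain, Ms4a4b and Ms4a6b fell and no member rose past the threshold. Ms4a4b averaged 564 CPM at day 3 and 2403 CPM in naive brain, a difference of -2.81 ± 0.67 on the log2(CPM + 1) scale (SE, limma adjusted p = 0.0228), and Ms4a6b differed by -2.96 ± 0.76 (adjusted p = 0.0401). Of all 22352 genes tested, 0.716% were called in either direction, 0.564% lower and 0.152% higher. The groups did not overlap for Ms4a4b, which was lower, as were 8.5% of all genes, or for Ms4a6c and Ms4a7, which were higher, as were 8.76%. Ms4a7 differed by 3.62 ± 1.11 (adjusted p = 0.120) and Ms4a6c by 2.23 ± 0.80 (adjusted p = 0.215). The median difference was 1.78 over the 7 members and 0.50 over all genes. Both calls were lost without any 1 naive brain library and without replicate 3 of day 3, where the differences stayed at -2.76 to -2.99 for Ms4a4b and -2.87 to -3.12 for Ms4a6b, and without replicate 2 of day 3, at -1.74 and -1.52, and in the low background libraries alone, with 1 day 3 library, they stood at -1.03 and -0.28. With edgeR's quasi-likelihood test no member was called, and DESeq2 called Ms4a6c and Ms4a7 higher in place of these 2; quantile normalization called Ms4a4b and Ms4a6c, and the fit on these 2 groups alone Ms4a6b and Ms4a7.

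At day 30 against naive brain no member passed the threshold, and 0.224% of all genes did, all of them lower at day 30. Ms4a4b averaged 4875 CPM at day 30 and 2403 CPM in naive brain, with a difference of 0.95 ± 0.67 (adjusted p = 0.683). Ms4a4c averaged 261 CPM at day 30 and 56.9 CPM in naive brain, a difference of 2.403 ± 0.84 (adjusted p = 0.314). It was the 1 member with an unadjusted p below 0.05. While edgeR and DESeq2 called 0 members, other scalings in limma did call some higher. Quantile normalization called Ms4a4b, with 12 of all genes called. Unscaled CPM called Ms4a4b (1.64, adjusted p = 0.000813) and Ms4a4c (3.07, adjusted p = 0.00134), with 119 of all genes called. For both genes every day 30 library lay above every naive brain library, as it did for 7.22% of all genes; no member lay wholly below, as 6.03% of genes did. Ms4a6b differed by 0.10 ± 0.76.

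Between the 2 times after stroke, Ms4a4b rose. It differed by 3.76 ± 0.67 between day 30 and day 3 (adjusted p = 0.00102) and was called in all 12 fits that left out 1 library, at 2.69 to 4.65. The call was lost in the fit on these 2 groups alone, which called Ms4a7, and with median centring and edgeR. Of all genes, 0.255% were called in either direction, 0.116% higher and 0.139% lower. Ms4a6b differed by 3.06 ± 0.76 (adjusted p = 0.0562), which was 1.62 without replicate 2 of day 3 and 4.40 and called without replicate 1, and Ms4a7 differed by -4.32 ± 1.11 (adjusted p = 0.0699), with 335, 33.2 and 90.5 CPM at day 3 all above its 3.398, 28.9 and 0 CPM at day 30. Replicate 1 of these 2 groups stood apart from replicates 2 and 3, and no label pairs the libraries by number. With the replicate number as a block over all 12 libraries, limma called Ms4a4b and Ms4a6b higher (adjusted p = 5.65e-08 and 0.000457) and Ms4a7 lower (adjusted p = 0.0347). Replicate 1 of naive brain deviated the opposite way, with correlations of -0.421 and -0.390 to replicate 1 of day 3 and of day 30. The block therefore does not suit all groups. The groups did not overlap for Ms4a4b, higher as were 4% of all genes, or for Ms4a7 and Ms4a1, lower as were 5.65%. For Ms4a1 this is no clear separation. Its highest day 30 value, 0.918 CPM, and its lowest day 3 value, 0.951 CPM, lie within what a count of 0 allows in those libraries. Within the high background libraries, 2 a group, Ms4a4b differed by 4.35 (adjusted p = 0.0108); in the low background libraries, 1 a group, by 2.57 (adjusted p = 0.165). The comparisons of day 3 and of day 30 with naive brain share the same 3 control libraries, which enter this one through the shared estimate of spread alone.

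The T cell list, too, took fewer reads at day 3 than in any other group. Counted against the list, Ms4a4b had 25.6, 18.3 and 16.2 reads per 100 reads on T cell genes for naive brain, 30.0, 19.4 and 40.9 for day 3, 35.98, 64.3 and 102 for day 30, and 49.96, 62.3 and 66.9 for blood. On this scale the day 3 and naive brain libraries overlapped and every day 3 library lay below every blood library. The day 30 and day 3 libraries overlapped too, with 40.9 in replicate 3 of day 3 and 35.98 in replicate 1 of day 30. The day 30 and blood libraries overlapped, and all 3 day 30 libraries lay above all 3 naive brain libraries. Ms4a6b had 13.2, 7.90 and 5.31 reads per 100 T cell reads for naive brain, 21.0, 4.14 and 13.7 for day 3, 12.2, 13.3 and 18.1 for day 30, and 45.5, 27.1 and 23.7 for blood, where each library lay above all 9 brain libraries. These ratios carry no test, and the part of T cell share in the differences above was not tested.

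**Figure D3:**
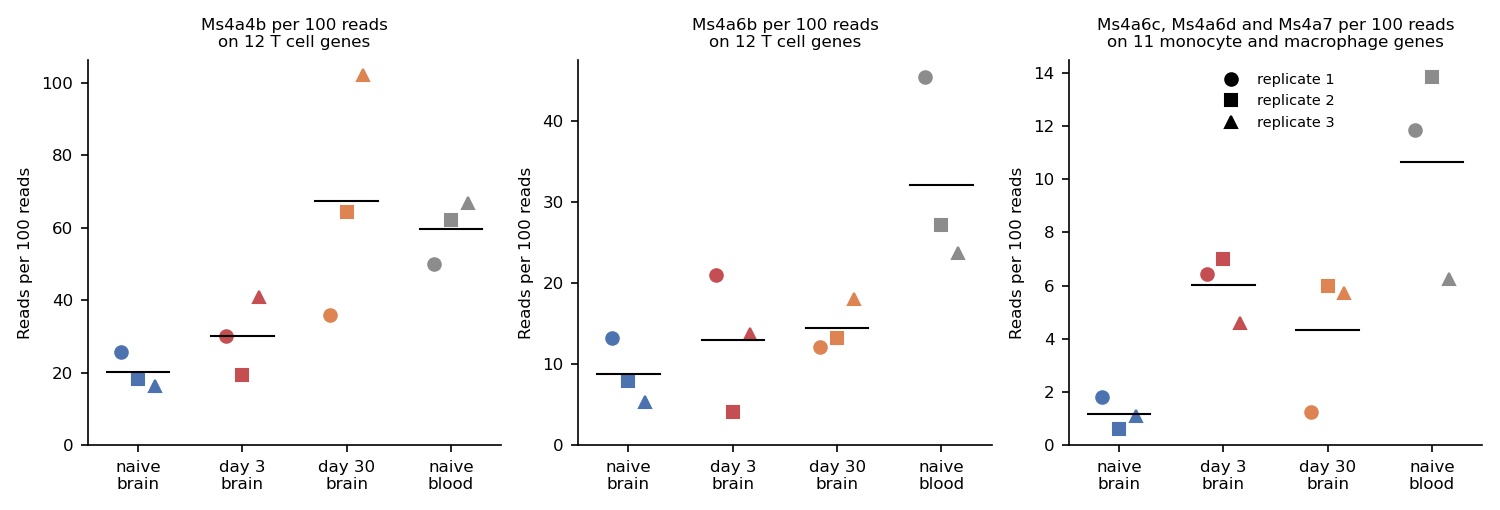
Reads on Ms4a4b (left) and Ms4a6b (middle) per 100 reads on 12 T cell genes, and reads on Ms4a6c, Ms4a6d and Ms4a7 together per 100 reads on 11 monocyte and macrophage genes (right), by group; symbols give the replicate and lines the mean of 3. The day 3 libraries, with 19.4 to 40.9 Ms4a4b reads per 100 T cell reads, overlap those of naive brain, with 16.2 to 25.6.

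Ms4a4c, the close copy of Ms4a4b and often seen among interferon-induced genes, was high in 1 of the 3 day 3 libraries. It had 61.6, 19.9 and 89.1 CPM in naive brain, 379, 15.5 and 30.5 CPM at day 3, 284, 214 and 285 CPM at day 30, and 142, 34.0 and 140 CPM in blood. The day 30 libraries lay close together and above all naive brain and blood libraries, while at day 3 replicates 2 and 3 were among the 3 lowest of all 12 and replicate 1 was the highest. Against naive brain the day 3 difference was 0.25 ± 0.84 (adjusted p = 0.866), and -1.11 without that library. Per 100 reads on Ms4a4b there were 2.80, 0.784 and 3.61 reads on Ms4a4c for naive brain, 32.2, 20.1 and 6.95 for day 3, 4.05, 6.47 and 6.58 for day 30, and 7.54, 2.38 and 5.39 for blood. Of the 50-base windows of Ms4a4c transcripts, 8.19% also occur in another gene, mostly Ms4a4b, so a part of its reads cannot be assigned with certainty. With the scaled CPM of all 12 libraries no comparison called it; with unscaled CPM it was called higher at day 30 than in naive brain (3.07, adjusted p = 0.00134) and lower in naive brain than in blood (-2.05, adjusted p = 0.0319). Without replicate 1 of day 3 it was called higher at day 30 than at day 3 (3.51).

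The mean levels of the myeloid members Ms4a6c, Ms4a6d and Ms4a7 were highest at day 3, and replicate 1 of day 3 was the highest library for each. With the limma fit of scaled CPM described below and no block, none passed the threshold there against naive brain or day 30. Other limma settings did call some. With unscaled CPM, limma called Ms4a6c and Ms4a7 higher at day 3 than in naive brain (adjusted p = 0.000475 and 0.0115). It also called Ms4a7 lower at day 30 than at day 3 (adjusted p = 0.00652). Ms4a6c, a gene of inflammatory monocytes, had 94.2, 29.4 and 26.7 CPM in naive brain, 600.1, 101 and 134 CPM at day 3, 45.3, 76.2 and 187 CPM at day 30, and 117, 53.8 and 68.6 CPM in blood. The day 3 libraries lay above those of naive brain and overlapped those of day 30 and of blood. Ms4a7, known from brain border macrophages and from macrophages that enter after injury, had 1.55, 15.1 and 12.8 CPM in naive brain, 335, 33.2 and 90.5 CPM at day 3, 3.398, 28.9 and 0 CPM at day 30, and 9.73, 8.78 and 2.82 CPM in blood. Its 3 day 3 libraries lay above the other 9, and its 0 at day 30 is a count of 0, which allows up to 1.35 CPM. The summed share of the border macrophage list, 8 genes, moved the same way, with 0.00385 to 0.00722% of reads for naive brain, 0.0181 to 0.0359% for day 3, 0.00317 to 0.00795% for day 30 and 0.00429 to 0.0110% for blood. Mrc1, Pf4, F13a1, Cbr2 and Clec10a had their highest library at day 3. Cd163 and Lyve1 had theirs in blood, and Folr2 in naive brain, at 24.6 CPM against 0, 5.46 and 1.07 CPM at day 3. Pf4 was at 0 in 2 naive brain libraries, 1 day 30 library and 1 blood library, and Cd163 in 1 library each of naive brain and blood. Folr2 was at 0 in replicate 1 of day 3, replicate 2 of naive brain and replicates 1 and 2 of blood. The part of these cells in the day 3 levels was not tested.

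Ms4a6d, a gene of macrophages and microglia, was higher in each brain group than in blood. It had 70.9, 6.46 and 96.3 CPM in naive brain, 472, 51.9 and 83.0 CPM at day 3, 54.1, 54.2 and 83.5 CPM at day 30, and 0, 2.19 and 23.9 CPM in blood. Blood replicate 1 held no read, which allows up to 1.62 CPM, and blood replicate 2 held 4 reads. Replicates 2 and 3 of day 3 lay within the range of naive brain. Every library of day 3 and of day 30 lay above the 3 blood libraries, while 1 naive brain library fell within their range. Against blood, where it averaged 8.71 CPM, Ms4a6d was higher in naive brain, with 57.9 CPM and a difference of 3.12 ± 0.98 (adjusted p = 0.0366), at day 3, with 202 CPM and 4.90 ± 0.98 (adjusted p = 0.00113), and at day 30, with 64.0 CPM and 3.89 ± 0.98 (adjusted p = 0.0339). Monocyte and macrophage genes and microglia genes took more reads in all 9 brain libraries than in blood, and their part was not tested.

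**Figure D4:**
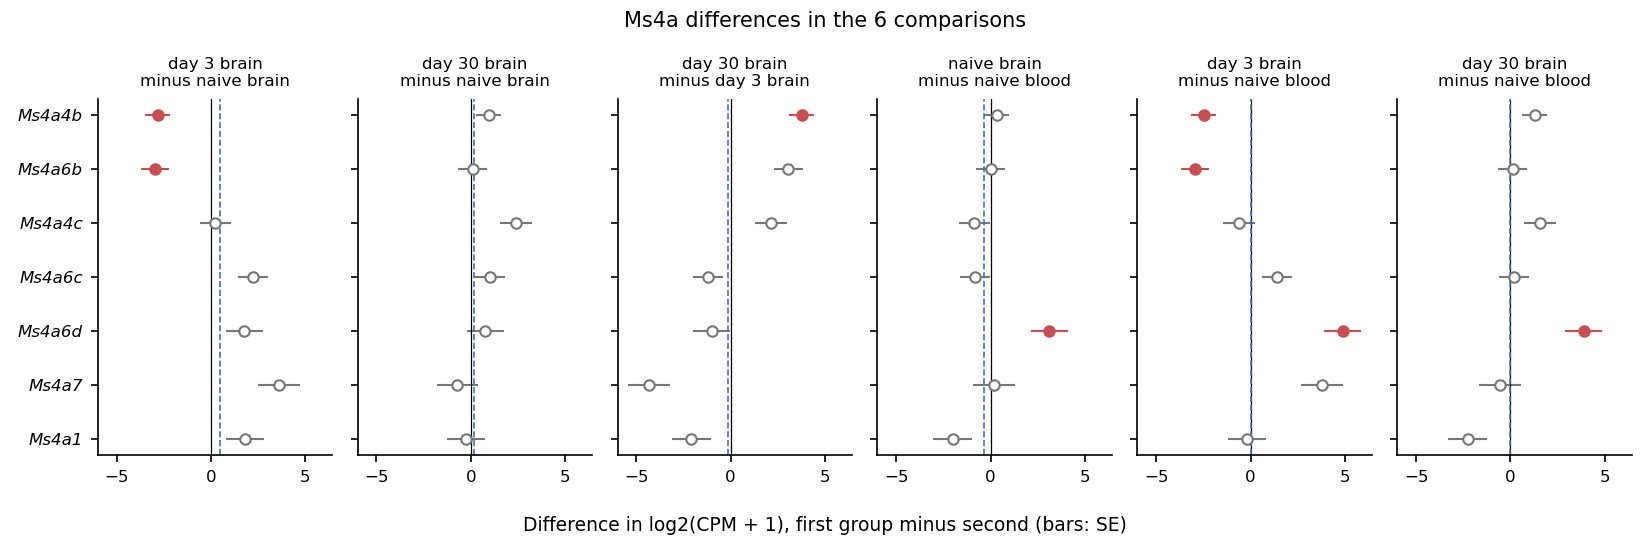
Difference in log2(CPM + 1) of each Ms4a gene in 6 comparisons, the group named first minus the second, with its SE (bars); filled red points passed the threshold of 0.05 over 22352 genes and the dashed line is the median of all genes. Ms4a6d is filled in all 3 comparisons with blood, at 3.12, 4.90 and 3.89, and Ms4a4b and Ms4a6b are filled below 0 at day 3.

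In naive brain against blood, Ms4a6d was the 1 member called, where 7.59% of all genes were called in either direction, 6.61% higher and 0.975% lower. Ms4a4b differed by 0.33 ± 0.67 and Ms4a6b by 0.01 ± 0.76, and both were below 0 with quantile normalization, unscaled CPM, DESeq2 and background as a term. With quantile normalization Ms4a4b was called lower in naive brain and Ms4a6d was not called. The Ms4a6d call was lost without replicate 1 or 3 of naive brain (2.65 and 2.43), without replicate 1 or 2 of blood (2.07 and 2.90) and without replicate 1 of day 3 (adjusted p = 0.0509). No background class holds both groups, so background and tissue cannot be told apart there; with background as a term the difference was 1.86 (adjusted p = 0.9995). With scaled CPM, Ms4a1 was the 1 member whose libraries did not overlap, lower in naive brain as were 15.2% of all genes. No member lay wholly higher, as 15.6% of genes did. The lowest blood value of Ms4a1, 1.62 CPM, is the limit that a count of 0 allows in that library. With unscaled CPM, Ms4a4b, Ms4a6b, Ms4a4c and Ms4a6c did not overlap either. They reached 1637, 848, 45.8 and 70.0 in naive brain and began at 2361, 1029, 56.1 and 88.7 in blood. The share of all genes without overlap was not counted on that scale, where their median difference was -1.05. Limma then called Ms4a4c and Ms4a6c lower in naive brain (adjusted p = 0.0319 and 0.0370).

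At day 3 against blood, 3 members were called, with 1.18% of all genes called in either direction, 0.085% lower and 1.1% higher. Ms4a4b was lower, by -2.48 ± 0.67 (adjusted p = 0.0399), as was Ms4a6b, by -2.95 ± 0.76 (adjusted p = 0.0275), and Ms4a6d was higher. Ms4a7 differed by 3.79 ± 1.11 (adjusted p = 0.0756) and was called higher in 9 of 25 alternatives. These were pseudocount 5, quantile normalization, edgeR, DESeq2, the fit on these 2 groups alone and the replicate block (adjusted p = 0.0485). The numbers of these 2 groups do not pair. The others were the fits without replicate 2 of day 3 and without replicate 1 or 3 of day 30. Ms4a4b did not overlap, lower as were 4.52% of all genes, nor did Ms4a6d and Ms4a7, higher as were 7.54%. Within the high background libraries, 2 of day 3 and 3 of blood, Ms4a4b differed by -3.37 (adjusted p = 0.0102), Ms4a6b by -4.29 (adjusted p = 0.00435) and Ms4a6d by 3.95 (adjusted p = 0.107). The call of Ms4a4b was kept without replicate 1 of day 3 or of day 30 and lost in the other 10 of 12 fits without 1 library, at -1.41 without day 3 replicate 2; that of Ms4a6b was lost without the same library (-1.51), naive brain replicate 1 (adjusted p = 0.0553) and blood replicates 1 and 3 (-2.56 and -3.01), and that of Ms4a6d in 1, without day 3 replicate 1 (3.95, adjusted p = 0.156).

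At day 30 against blood, Ms4a6d was the 1 member called, with 0.711% of all genes called in either direction, 0.676% higher and 0.0358% lower. Ms4a4b averaged 4875 CPM at day 30 and 1967 CPM in blood, a difference of 1.28 ± 0.67 (adjusted p = 0.510), and Ms4a4c differed by 1.54 ± 0.84 (adjusted p = 0.541). These 2 and Ms4a6d did not overlap, higher as were 7.35% of all genes, and Ms4a1 did not, lower as were 7.38%. Ms4a1 was near the limit of detection there, at up to 0.918 CPM at day 30 and from 1.62 CPM in blood. The Ms4a6d call was lost without replicate 1 or 2 of blood (2.83 and 3.67), replicate 2 or 3 of day 30 (3.99 and 3.68) or replicate 1 of day 3 (adjusted p = 0.0679), and in the high background libraries it stood at 3.99 (adjusted p = 0.194).

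Ms4a1, the gene of the B cell protein CD20, was near the limit of detection. It had 0, 1.29 and 1.09 CPM in naive brain, 0.951, 6.82 and 12.9 CPM at day 3, 0.453, 0.918 and 0 CPM at day 30, and 1.62, 7.68 and 13.02 CPM in blood. These came from 123 reads in all, with 2 libraries at 0 and 4 at 1 to 3 reads, and the 4 highest were high background libraries. The B cell list, of which 10 genes were in the table, took a share of 0.00167 to 0.00769% for naive brain, 0.00579 to 0.0299% for day 3, 0.00276 to 0.0196% for day 30 and 0.0132 to 0.0184% for blood, and Cd79a, part of the B cell receptor, was at 0 in 4 libraries. With all 12 libraries Ms4a1 was called in no comparison.

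Within a library, where the scaling of the libraries cancels, the division of Ms4a reads separated day 3 from the rest. Of the reads on the 7 members, Ms4a4b and Ms4a6b together took 93.6, 98.1 and 93.5% for naive brain, 52.8, 31.0 and 62.5% for day 3, 96.0, 91.4 and 90.2% for day 30, and 93.0, 95.1 and 93.4% for blood. Ms4a6c, Ms4a6d and Ms4a7 together took 4.67, 1.37 and 3.88%, 37.1, 61.6 and 32.8%, 1.05, 3.66 and 4.79%, and 3.29, 3.00 and 2.54%. The 3 day 3 libraries, of low and high background alike, stood apart from the other 9 on both shares. Counted per kb of exon, the lymphoid share was 79.0 to 94.2% for naive brain, 11.4 to 35.1% for day 3, 68.7 to 86.0% for day 30 and 79.4 to 85.8% for blood.

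**Figure D5:**
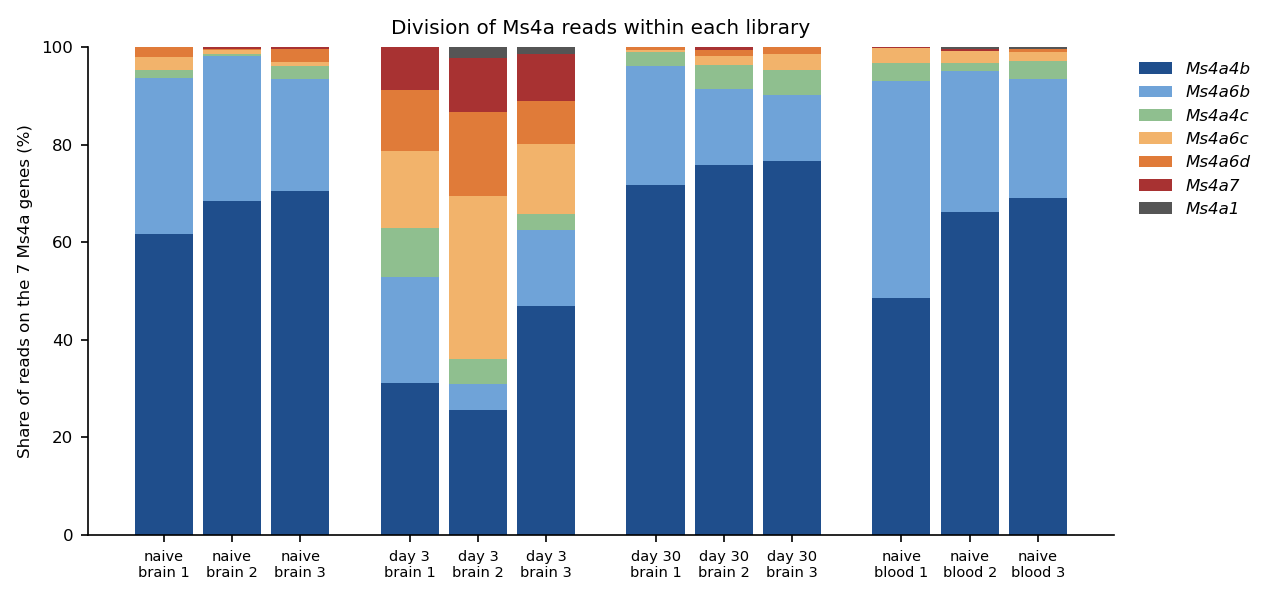
Share of the reads on 7 Ms4a genes taken by each gene (stacked, %), one bar per library in 4 groups. The 2 blue segments, Ms4a4b and Ms4a6b, fill 90.2% or more of each bar outside day 3 and 31.0 to 62.5% at day 3.

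Relative to Ms4a6b, its copy Ms4a6c was most abundant at day 3. Per 100 reads on Ms4a6b there were 8.26, 2.68 and 3.31 reads on Ms4a6c for naive brain, 72.8, 614 and 91.3 for day 3, 1.91, 11.2 and 24.4 for day 30, and 6.85, 8.62 and 7.48 for blood. The value of 614 rests on 36 reads of Ms4a6b. Which gene was most abundant per length depended on the length used: per kb of all exons Ms4a4b led in 7 libraries, Ms4a6b in 2 and Ms4a6c in all 3 of day 3, and per kb of 1 principal transcript Ms4a4b led in 6, Ms4a6b in 5 and Ms4a6c in 1. Against the monocyte and macrophage list, Ms4a6c, Ms4a6d and Ms4a7 together had 1.82, 0.596 and 1.08 reads per 100 for naive brain, 6.45, 7.001 and 4.57 for day 3, 1.25, 5.98 and 5.70 for day 30, and 11.9, 13.8 and 6.27 for blood. On that scale the 2 highest libraries were from blood, where the list had its fewest reads, and day 3 lay above naive brain.

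Of the 14 other genes of the family that were looked for, 11 were in the table, 9 Ms4a genes and the related Tmem176a and Tmem176b of myeloid cells. None of the 9 exceeded 47.8 CPM, the highest value of Ms4a4d, and Ms4a2, the beta chain of the mast cell IgE receptor, reached 15.5 CPM. Mast cell and basophil genes took at most 0.0139% of reads, and neutrophil genes at most 0.0135%. With limma none of the 9 was called in any comparison; edgeR called no family gene lower, and DESeq2 called 2 lower in naive brain than in blood and 1 higher at day 3 than in naive brain. With limma, Tmem176b was lower at day 30 than in naive brain, with 49.8 CPM at day 30 and 466 CPM in naive brain (-4.54 ± 0.99, adjusted p = 0.0318), and higher in naive brain than in blood (5.31 ± 0.99, adjusted p = 0.000150). Neither edgeR nor DESeq2 called a family gene at day 30 against naive brain. Against blood, both called 2 family genes higher in naive brain and 1 higher at day 3. Tmem176a was called higher than in blood in naive brain (4.54 ± 0.92, adjusted p = 0.000563) and at day 3 (3.54 ± 0.92, adjusted p = 0.0306). The 2 genes overlap on chromosome 6, so their reads may be mixed.

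Of 10 genes known to work with Ms4a proteins, 9 were tested. With limma and with edgeR none was called between the 3 brain groups, and DESeq2 called 1 higher at day 3 than in naive brain. The unadjusted limma p was below 0.05 for 2 lower at day 3 than in naive brain, for 1 higher and 3 lower at day 30 than in naive brain, and for 2 lower at day 30 than at day 3. Against blood, limma called 4 higher in naive brain, 2 at day 3 and 1 at day 30. Tnfrsf18, which codes for GITR, the receptor beside Ms4a4b, averaged 244 CPM in naive brain and 61.3 CPM in blood (4.22 ± 1.02, adjusted p = 0.00402). Naive brain replicate 1, at 94.2 CPM, lay below blood replicate 1, at 180.1 CPM, on which the blood mean rests, since the other blood libraries had 1.65 and 2.11 CPM. Fcer1g, the Fc receptor gamma chain, was higher than in blood in naive brain (4.91 ± 0.69, adjusted p = 3.68e-07), at day 3 (5.16 ± 0.69, adjusted p = 2.12e-07) and at day 30 (3.46 ± 0.69, adjusted p = 0.00202). The kinase Syk was higher in naive brain (3.34 ± 0.89, adjusted p = 0.0109) and at day 3 (3.33 ± 0.89, adjusted p = 0.0376), and Cd81, a widely expressed membrane protein of the tetraspanin family, in naive brain (5.41 ± 0.92, adjusted p = 2.75e-05).

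By pattern over the 12 libraries, measured as the mean absolute difference of centred log2(CPM + 1) among 13250 genes, the nearest to Ms4a4b were AW112010 (0.387), Ctla2a (0.394) and Cd226 (0.420), an activating receptor of T and natural killer cells. Ms4a6b was 12th at 0.526. The nearest to Ms4a6b were Cd226 (0.439), Cd3d (0.496), a CD3 chain, and Gimap6 (0.503). For comparison, the median distance of all these genes was 1.62 from Ms4a4b and 1.65 from Ms4a6b. Ms4a4c was nearest to Mterfd1, Crebzf and Timm9 (0.449 to 0.640), and Ms4a6c to Kctd14, Nrp2 and Rfwd2 (0.348 to 0.510). Ms4a6d was nearest to Alox5ap, Pla2g12a and Tmem256 (0.863 to 0.887) and Ms4a7 to the Tnfsf12Tnfsf13 locus, Tubb6 and S100a8 (0.730 to 0.880). These distances share library depth and background and carry no test.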

How the data were processed

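RNA of sorted CD8 T cells was made into libraries with a SMART-Seq v4 kit, without molecular identifiers; PCR copies therefore stay in the counts. Per the submitters' processing notes, the tools were FastQC 0.11.2, STAR 2.5.3a with mm10, featureCounts from Subread, and edgeR; the sources used here give no annotation, strand setting or filter. The deposited table, 23937 genes, holds a normalized signal, CPM of a scaled library size, with column sums of 526580 to 2086820. Dividing by the smallest step in each library gave whole reads (100% of values, to within 1e-06 reads).

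The fit was limma 3.58.1 with a trend (R 4.3.3) to log2(CPM + 1) of all 12 libraries, over 22352 genes that reached 1 CPM in 3 or more libraries. In each of 6 comparisons p-values, two-sided, received a Benjamini-Hochberg adjustment over all genes (threshold 0.05). The script was tested on simulated data. The median difference of all genes was 0.50, 0.19, -0.15, -0.37, 0.03 and -0.05 (order: day 3 then day 30, each over naive brain; day 30 over day 3; then the brain groups over blood, naive first), and in the same order 1.13, 0.57, -0.45, -1.05, -0.06 and -0.44 with unscaled CPM and -0.56, -0.65, 0.07, 0.90, 0.24 and 0.37 with median centring. Alternatives were other pseudocounts, filters and scalings, edgeR 4.0.16, DESeq2 1.42.0, leaving out each library, replicate and background terms, and background classes or 2 groups alone.

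The members, marker lists, family and partner lists were chosen with earlier results of these data known. All members were named, as were partners that limma called and the 3 genes most alike each member with at least 10 CPM in its highest group. Of the other family genes in the table, Ms4a2, Ms4a4d, Tmem176a and Tmem176b were named and the rest only counted. No label pairs the libraries by replicate number. Between day 30 and day 3 the same-number correlations were 0.530, 0.284 and 0.165, and replicates 2 and 3 crossed gave 0.214 and 0.180. The data thus set replicate 1 apart from these, as the background classes do. The numbers were not shown to pair the libraries of any groups. Sequences came from RefSeq, identities from Biopython 1.88 alignments.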

Additional observations from a re-analysis of the deposited data

Results flagged for a closer look

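Ms4a4b moved differently from naive brain at the 2 times after stroke. Against naive brain its difference was -2.81 at day 3 and 0.95 at day 30 (log2), and the test of the difference between these, 3.76 ± 0.67, passed the threshold (limma adjusted p = 0.00102). That test is the comparison of day 30 with day 3 given above, by which the gene was flagged, and no further result. Its call was lost with edgeR, with median centring, in the low background libraries and in the fit on these 2 groups alone. All 3 day 30 libraries lay above and all 3 day 3 libraries below the naive brain libraries. The T cell list was likewise lower at day 3, with 0.0752 to 0.243% of reads, than at day 30, with 0.481 to 1.25%. Per 100 reads on that list, Ms4a4b had 19.4 to 40.9 reads at day 3 and 35.98 to 102 at day 30, which overlap. The part of the T cell list was not tested.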

How the results depend on the processing

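No called member changed sign in any alternative, but the counts of members called, 2, 0, 1, 1, 3 and 1 (order: day 3 then day 30, each over naive brain; day 30 over day 3; then the brain groups over blood, naive first), depended on the setting, and the cause was not tested. Day 3 against naive brain gave 0 with pseudocount 0.1, no filter, median centring, edgeR, background as a term and low background libraries only, 1 with pseudocount 5 and with at least 5 CPM, and 4 with unscaled CPM. Day 30 against naive brain gave 1 with quantile normalization and 2 with unscaled CPM. Day 30 against day 3 gave 0 with median centring, edgeR and low background libraries only, 2 with quantile normalization and background as a term, and 3 with unscaled CPM. Naive brain against blood gave 0 with pseudocount 5, no filter, edgeR, DESeq2, background as a term and 2 groups alone, and 2 with unscaled CPM. Day 3 against blood gave 1 with pseudocount 0.1, no filter and at least 5 CPM, and 0 with median centring. Counts near the original could hide other members: there edgeR and pseudocount 5 called Ms4a6d and Ms4a7, DESeq2 lost Ms4a6b and gained Ms4a7, and 2 groups alone lost Ms4a4b and gained Ms4a7. Day 30 against blood gave 0 with pseudocounts 0.1 and 5, no filter, at least 5 CPM, median centring, edgeR, DESeq2, background as a term, 2 groups alone and, an alternative chosen after seeing the data, high background libraries only. Leaving out 1 library gave 0 to 2, 0 to 0, 1 to 3, 0 to 1, 1 to 4 and 0 to 1. With the replicate block the counts were 2, 0, 3, 1, 4 and 1, though the replicate numbers were not shown to pair the libraries. Counts of members are to be read beside those of all 22352 genes tested. The limma fit of scaled CPM called 160, 50, 57, 1696, 264 and 159 of these in that order. Median centring called 5, 2, 8, 2894, 75 and 11, and quantile normalization 56, 12, 134, 704, 601 and 179. Unscaled CPM called 225, 119, 265, 1563, 573 and 276. The edgeR test called 17, 6, 35, 1177, 286 and 143, and DESeq2 1000, 240, 167, 3842, 575 and 313. Of 1045 differences of single members under alternatives, 995 stayed within 1 SD between replicates and 50 moved further. Many of these could not move. Leaving out a library outside the 2 groups compared, or adding the replicate block, leaves the difference unchanged. The 995 is therefore no measure of stability. Depth limits Ms4a1 in all groups, with 23, 42, 4 and 54 reads a group (naive brain, day 3, day 30, blood), and Ms4a7 and Ms4a6d in blood, with 42 and 72.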
